A study of Mus musculus with 16 samples.

Results

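Type I interferon-stimulated antiviral genes were examined in mouse pulmonary endothelial cells (ECs) after LPS and after loss of endothelial Fgfr1. The group holds 40 genes chosen by name, out of 54532 genes in each deposited table. Earlier results of these data were known when these genes and the other lists were chosen. All 40 passed the filter on low values in both comparisons. RNA-seq was performed on bulk ECs taken from lung with magnetic beads, which were used to remove CD45+ cells and then to capture CD31+ cells. In the first experiment, male WT C57/BL6J mice aged 8 weeks were dosed through the trachea with saline (4 libraries) or LPS at 10 mg/kg (6 libraries). In the second, mice that were Fgfr1 loxP/loxP (3 libraries) or Fgfr1 iΔEC/iΔEC (3 libraries) had tamoxifen and then LPS at 2 mg/kg, so this experiment holds no mouse without LPS. The iΔEC/iΔEC mice carry a Cre recombinase that is driven by the VE-cadherin promoter and switched on by tamoxifen, and the loxP/loxP littermates are their control. RNA was taken after 24 h throughout. In the second experiment the knockout was induced in adult mice. The sources used here state neither whether a library is 1 mouse or a pool nor the age in weeks in that experiment. The p-values therefore measure the spread between these samples. Reads on genes numbered 13478726 to 18807007 in the saline libraries, 17840221 to 19043015 in the LPS libraries, 15969575 to 17002788 in the loxP/loxP libraries and 16642177 to 16943522 in the iΔEC/iΔEC libraries.

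LPS is a ligand of the receptor TLR4. Through the adaptor TRIF, TLR4 can activate the kinases TBK1 and IKKε and the transcription factor IRF3, which switch on interferon β. Secreted type I interferons bind IFNAR1 and IFNAR2, the kinases JAK1 and TYK2 are activated, and the complex ISGF3, which holds STAT2 and IRF9, forms. ISGF3 binds the interferon-stimulated response element (ISRE) in the promoters of many genes, whose products sense viral nucleic acid, degrade RNA, block membrane fusion or tag proteins with ISG15. IRF7 is itself such a gene and amplifies the response. Interferon γ acts through another receptor and mainly on genes with the GAS element.

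Of the 40 genes, 20 rose with LPS and 0 fell, at an adjusted p at or under 0.05 and a log2 fold change of at least 1 in size (limma, Benjamini-Hochberg over all genes). Over all 14893 genes tested, 11.9% rose and 6.79% fell by the same rule. The other 20 genes of the group did not pass, among them Stat2, Ddx58, Cmpk2 and Bst2, so the group did not move as 1 block. With no limit on the fold change, 28 of the 40 were higher and 2 were lower, against 29.5% higher and 23.7% lower over all genes. Here a log2 fold change is the difference in mean log2(FPKM + 1), where FPKM is the number of reads scaled to gene length and library size, and it understates the change of genes with low values. The median log2 fold change was 0.93 over the 40 genes and 0.01 over all genes tested. Every LPS library lay above every saline library in 24 of the 40 genes and below in 1, against 22.7% and 16.7% of all genes (39.4% in either direction). In iΔEC/iΔEC against loxP/loxP mice, 0 of the 40 genes passed.

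The libraries of a group differed among themselves. Saline 3 was the highest saline library in 23 of the 40 genes, and LPS 4 was the lowest LPS library in 16. For these counts the shares of all genes are not given here. Saline 1 was the lowest saline library in 25 of the 40 genes, and over all genes tested it was lowest in 37.3%. LPS 2 was the highest LPS library in 23 of the 40 genes (57.5%), and over all genes tested it was highest in 28.0%. Its place went with gene length: with all genes tested parted by length into 3 equal classes, LPS 2 was highest in 42.3% of the shortest, 31.3% of the middle and 10.6% of the longest. The 23 genes of the group in which LPS 2 was highest had a median length of 2656 bases, and the other 17 had a median of 5427 bases. The part of length in their values was not tested. Without saline 1, 19 of the 40 genes rose, without LPS 2 there were 18, and without both there were 18. The medians of the 40 genes, as log2(FPKM + 1) minus the saline mean, were 1.07, 1.45, 0.99, 0.69, 0.85 and 0.89 in LPS 1 to LPS 6 and -0.35, 0.24, 0.28 and -0.18 in saline 1 to saline 4, so every LPS library was above every saline library.

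**Figure D1:**
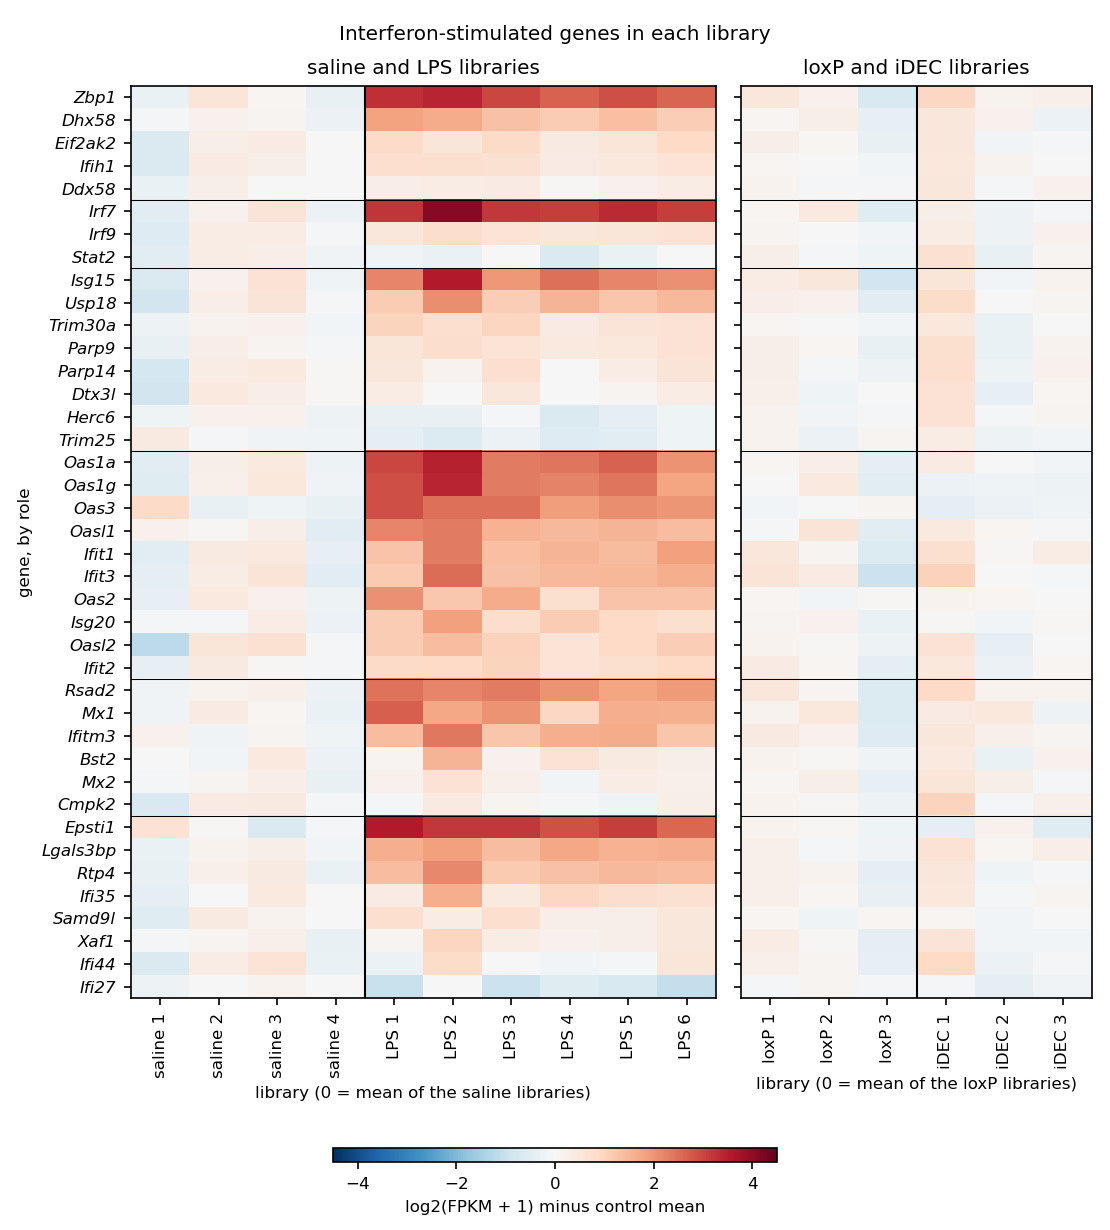
Each cell is log2(FPKM + 1) of a gene (row, grouped by role) in a library (column), minus the mean of the saline libraries (left) or of the loxP/loxP libraries (right); red is above and blue below that mean. Irf7 (3.35), Epsti1 (3.09) and Zbp1 (2.98) are the reddest rows over the 6 LPS libraries, while Stat2, Herc6, Trim25 and Ifi27 are pale or blue.

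Promoter stretches are shown to set genes that rose beside genes that did not. RefSeq promoter windows (GRCm38.p6) of 250 bases before to 50 bases after each gene's start were found for 30 of the 40 genes. The ISRE was searched on both strands as GAAA, any 2 bases (NN) and GAAA, and 14 of the 30 genes (46.7%) held it, against 3.99% of all 27025 genes with a window. It was found in 8 of the 14 genes that rose and have a window, and in 6 of the 16 that did not pass. In the 250 bases before the start alone, the numbers were 7 of 14 and 3 of 16. With matches spaced by 1 base counted as well, they were 8 of 14 (57.1%) and 9 of 16 (56.2%), against 7.27% of all genes, so the letters did not part the genes that rose from the rest in every search. The GAS letters TTCNNNGAA, also on both strands, were in 7 of the 30 genes (23.3%) and 9.55% of all genes. A match is a description of letters, not a bound site. The following stretches lie before the start, read 5′ to 3′ on the strand of the gene, with every ISRE match in capitals and overlapping matches joined. Isg15, Ifit1, Oas1a, Oas1g and Rsad2 rose with LPS, while Stat2 and Bst2 hold the same letters and did not pass. The windows of Irf7, Zbp1 and Epsti1, the genes with the largest rises on the log2(FPKM + 1) scale, are not among the matches: Irf7 and Epsti1 had no match, and Zbp1 was not among the 30 genes.
Isg15 (chr4:156200860-156200911, minus strand): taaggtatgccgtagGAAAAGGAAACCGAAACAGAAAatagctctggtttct
Ifit1 (chr19:34640770-34640828, plus strand): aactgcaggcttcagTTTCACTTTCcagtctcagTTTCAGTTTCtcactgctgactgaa
Oas1a (chr5:120907526-120907560, minus strand): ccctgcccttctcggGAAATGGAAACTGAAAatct
Oas1g (chr5:120887614-120887646, minus strand): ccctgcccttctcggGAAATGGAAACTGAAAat
Rsad2 (chr12:26456548-26456587, minus strand): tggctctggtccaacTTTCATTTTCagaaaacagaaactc
Stat2 (chr10:128270261-128270300, plus strand): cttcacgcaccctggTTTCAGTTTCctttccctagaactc
Bst2 (chr8:71537572-71537617, minus strand): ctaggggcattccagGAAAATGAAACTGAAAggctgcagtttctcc

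Of the 5 sensors of viral nucleic acid, 2 rose and 3 did not pass. Zbp1, which binds Z-form nucleic acid and can start necroptosis, was at 2.61, 5.49, 3.78 and 2.56 FPKM in saline 1 to saline 4 and at 26.6 to 47.0 FPKM in the LPS libraries (median 33.5). All LPS libraries were far above all saline libraries, and the difference in log2 was 2.98 with a standard error of 0.21 (limma adjusted p = 2.06e-06). Dhx58, which encodes LGP2, a regulator of the RNA sensors, rose by 1.40 on the same scale (adjusted p = 4.06e-05). Ifih1, the gene of the long-RNA sensor MDA5, differed by 0.60 (adjusted p = 0.0180), and Eif2ak2, the gene of the kinase PKR that stops translation, by 0.69 (adjusted p = 0.0110), both under the fold limit. Ddx58, which encodes RIG-I, was at 12.95 ± 2.10 FPKM (SD, n = 4) in saline and 15.5 ± 1.33 FPKM (SD, n = 6) in LPS, with overlapping groups and an adjusted p of 0.0925.

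Of the transcription factors, Irf7 rose, and Irf9 and Stat2 of ISGF3 did not pass. Irf7 (ENSMUSG00000025498, chromosome 7 of GRCm38, 141262706 to 141266481, minus strand) had the largest change of the 40 genes on the log2(FPKM + 1) scale, while by the log2 ratio of mean FPKM Oas1g (3.53) and Epsti1 (3.46) were above it (3.43). It was at 9.55, 15.9, 21.0 and 11.3 FPKM in saline 1 to saline 4 and at 126 to 254 FPKM in the LPS libraries (median 135). The groups were far apart, LPS 2 was the highest library, and the difference in log2 was 3.35 with a standard error of 0.25 (limma adjusted p = 2.43e-06). Irf9, the DNA-binding partner within ISGF3, was at 11.8, 23.1, 22.9 and 16.7 FPKM in saline 1 to saline 4 and at 25.9 to 31.7 FPKM in the LPS libraries (median 27.3). Its groups did not overlap, but its log2 fold change of 0.60 (standard error 0.17, adjusted p = 0.0121) was under the fold limit. Stat2 was at 14.7, 26.3, 26.0 and 18.4 FPKM in saline 1 to saline 4 and at 13.1 to 21.0 FPKM in the LPS libraries (median 17.7). These ranges overlapped, with a log2 fold change of -0.22 (standard error 0.18, adjusted p = 0.319). Of the 40 genes 14 overlap another gene on the genome, among them Irf7 with Phrf1, Irf9 with Rnf31 and the called genes Dhx58, Usp18, Oas2, Oasl1 and Rtp4, and since the strandedness of counting is not given in the sources used here, shared reads cannot be told apart.

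In the group of ISG15, ubiquitin and ADP-ribose enzymes, 2 of 8 genes rose. Isg15, a ubiquitin-like protein that is joined to other proteins, was at 18.8, 34.9, 47.5 and 26.6 FPKM in saline 1 to saline 4 and at 119 to 371 FPKM in the LPS libraries (median 141). The 371 FPKM of LPS 2 stood above the 171 FPKM of the next library, and even the lowest LPS library exceeded all saline libraries. The difference in log2 was 2.40 with a standard error of 0.33 (limma adjusted p = 0.000162), and it was 2.18 to 2.61 in the fits that each left out 1 library. Usp18, the protease that removes ISG15 and damps signaling from IFNAR2, rose by 1.43 (adjusted p = 0.00115). Herc6, a ligase that joins ISG15 to proteins in the mouse, did not pass. It was at 3.23, 4.58, 4.52 and 3.17 FPKM in saline 1 to saline 4 and at 2.07 to 3.55 FPKM in the LPS libraries (median 2.80), a log2 fold change of -0.34 (standard error 0.14, adjusted p = 0.0607) with overlapping groups. Trim25, a ubiquitin ligase that acts on RIG-I, was at 46.3, 33.0, 31.3 and 30.3 FPKM in saline 1 to saline 4 and at 22.4 to 30.1 FPKM in the LPS libraries (median 24.9). All 6 LPS values lay under the lowest saline value, though only just, and the log2 fold change of -0.43 (standard error 0.14, adjusted p = 0.0235) was under the fold limit. Scaling to the endothelial markers, which moved the median of all genes to 0.63, gave 0.34, still below that median. Trim30a, a member of the TRIM family, differed by 0.73 (adjusted p = 0.00193) and Parp9 by 0.59 (adjusted p = 0.00324), both under the fold limit. Parp14, another ADP-ribosyltransferase of this family, had 0.39 and Dtx3l, the ligase partner of PARP9, had 0.22, and neither passed (adjusted p = 0.183 and 0.432). Dtx3l and Parp9 overlap on opposite strands, so their reads were not separated with certainty.

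Of the genes of RNA binding and degradation 9 of 10 rose, with a median log2 fold change of 1.62. The OAS proteins make a short oligoadenylate from ATP when they meet double-stranded RNA, which activates RNase L, and the IFIT proteins bind viral RNA ends. Oas1a rose by 2.65 (standard error 0.28, adjusted p = 2.61e-05), Oas1g by 2.52 (adjusted p = 6.35e-05), Oas3 by 2.30 (adjusted p = 5.5e-05) and Oas2 by 1.37 (adjusted p = 0.000821). Oas1g and Oas3 were low in saline, at 0.872 ± 0.567 and 0.876 ± 0.881 FPKM (SD, n = 4), where Oas1g had 7 reads in its lowest library, and reached 10.1 ± 4.72 and 7.92 ± 2.53 FPKM (SD, n = 6). The log2 ratio of their mean FPKM was 3.53 for Oas1g and 3.18 for Oas3, larger than the fold changes above because the pseudocount of 1 draws low values together. The value of Oas3 in saline rests on saline 1, which had 2.19 FPKM while saline 2 to saline 4 had 0.374 to 0.547. The OAS-like genes Oasl1 and Oasl2 rose by 1.75 (adjusted p = 9.62e-05) and 1.03 (adjusted p = 0.0175). Oasl2 overlapped between groups, and its change was 0.63 without saline 1 and 0.97 without LPS 2, under the fold limit. Ifit1 rose by 1.63 (adjusted p = 0.000341) and Ifit3 by 1.60 (adjusted p = 0.000868), while Ifit2 had 0.83 (adjusted p = 0.000838), under the fold limit with groups apart. Isg20, an exonuclease of RNA, rose by 1.10 (adjusted p = 0.00145), and by 0.95 without LPS 2, which is under the limit. Oas1a and Oas1g, Ifit1 and Ifit1bl1, and Ifit3 and Ifit3b are related genes. How alike their sequences are and whether reads were shared between them was not tested, so the values of each are uncertain.

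Of the membrane proteins, GTPases and the nucleotide enzyme, 3 of 6 rose. Ifitm3, which blocks fusion of viruses with the endosome, was the most abundant of the 40 genes per length in all 4 groups. It was at 849, 667, 806 and 643 FPKM in saline 1 to saline 4 and at 1744 to 3807 FPKM in the LPS libraries (median 2122). The groups did not overlap, and the difference in log2 was 1.59 with a standard error of 0.27 (limma adjusted p = 0.000636). Bst2, or tetherin, which holds budding virus at the cell surface, was next in level at 290, 269.9, 399 and 249 FPKM in saline 1 to saline 4. In the LPS libraries it was at 327 to 851 FPKM (median 376), so saline 3 lay within the LPS range, and the difference of 0.53 did not pass (standard error 0.28, adjusted p = 0.126). Rsad2, which encodes viperin, rose by 2.11 (standard error 0.16, adjusted p = 2.51e-06), with 3.58 ± 0.729 FPKM (SD, n = 4) in saline and 18.9 ± 3.503 FPKM (SD, n = 6) in LPS. Cmpk2, a nucleotide kinase whose gene lies 12.8 kb from Rsad2 on chromosome 12, was at 13.4 ± 4.57 FPKM in saline and 13.7 ± 2.41 FPKM in LPS, a log2 fold change of 0.08 (standard error 0.21, adjusted p = 0.766). A like contrast was seen between the dynamin-like GTPases. Mx1 rose by 1.76 (adjusted p = 0.000382), from 1.06 ± 0.427 to 6.38 ± 3.10 FPKM, and Mx2, 72.4 kb away on chromosome 16, had 0.26 (adjusted p = 0.203). The difference between the members of each of these pairs was not tested. Mx2 is annotated as a polymorphic pseudogene.

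Of the 8 remaining genes 3 rose. Epsti1, an interferon-induced gene first described in epithelial and stromal co-culture, was at 4.49, 2.65, 1.23 and 2.30 FPKM in saline 1 to saline 4 and at 20.1 to 40.5 FPKM in the LPS libraries (median 30.0). The groups were far apart, with a log2 fold change of 3.09 (standard error 0.24, adjusted p = 3.78e-06). Lgals3bp, a secreted glycoprotein that binds galectin 3, rose by 1.63 (adjusted p = 8.47e-06) and Rtp4, a chaperone of receptors, by 1.49 (adjusted p = 0.000204). Ifi35 had 0.81 (adjusted p = 0.0152) and Samd9l, a restriction factor of poxviruses, 0.48 (adjusted p = 0.0479), both under the fold limit. Xaf1, a gene linked to apoptosis, had 0.39 (adjusted p = 0.0810) and Ifi44 0.15 (adjusted p = 0.667). Ifi27 lay at the other end of the 40 genes. It was at 47.1, 56.4, 61.6 and 56.5 FPKM in saline 1 to saline 4 and at 25.6 to 55.04 FPKM in the LPS libraries (median 31.0). Only LPS 2 reached into the saline range, and the log2 fold change of -0.71 (standard error 0.20, adjusted p = 0.0113) was under the fold limit. Quantile normalization gave -1.21, which passed, and scaling to the endothelial markers gave 0.07, below the median of all genes of 0.63 under that scaling.

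**Figure D2:**
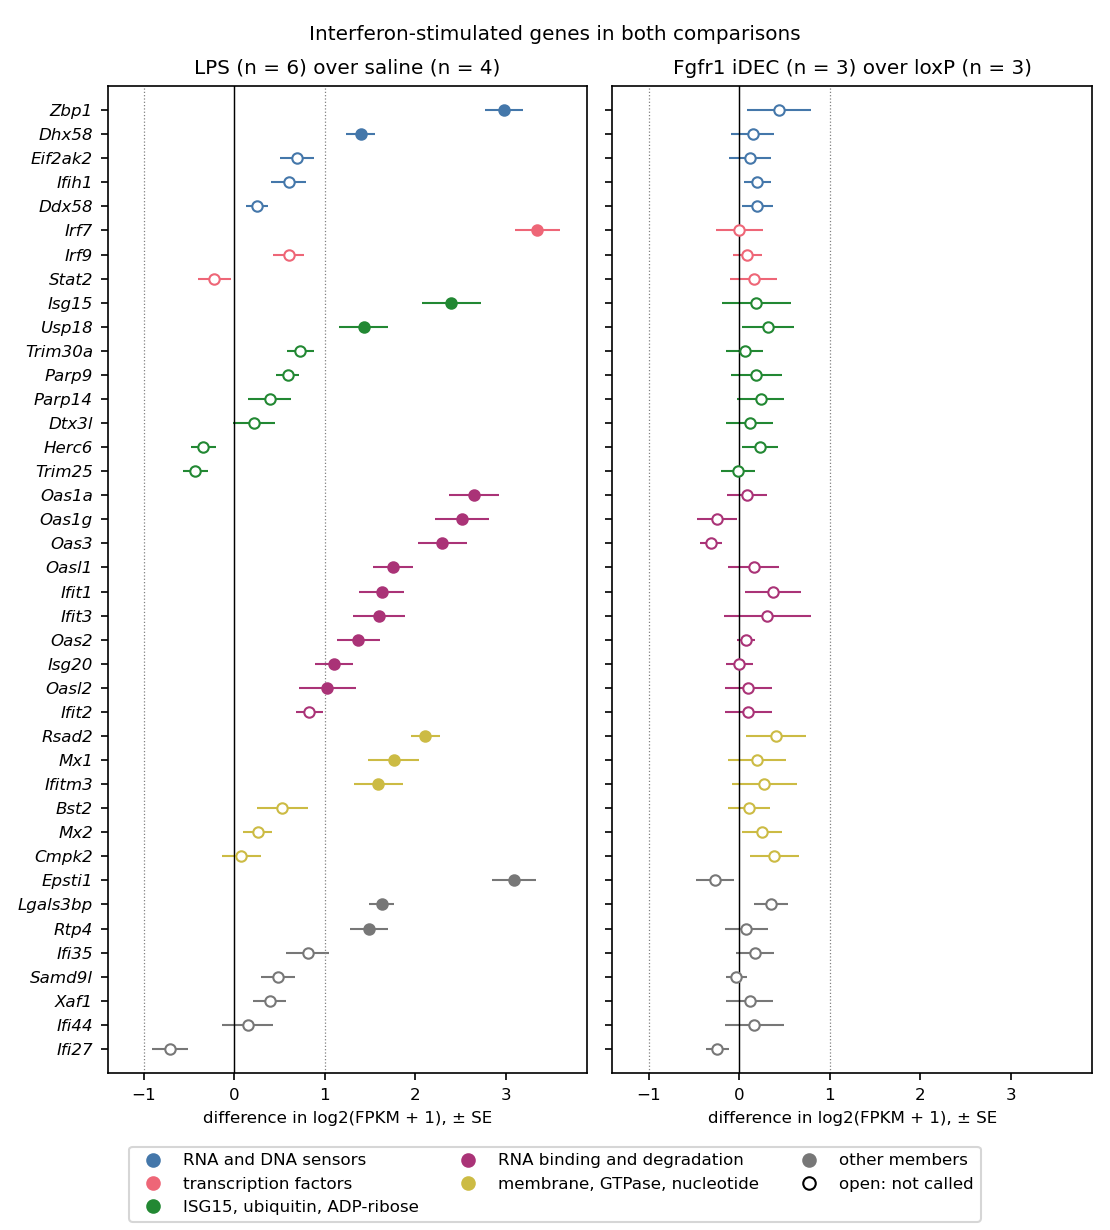
Points are the difference in mean log2(FPKM + 1) with its standard error for each of the 40 genes, ordered by role and size, with filled points for called genes and dotted lines at the fold limit. In LPS over saline (left) 20 points are filled, from Oasl2 at 1.03 to Irf7 at 3.35, while in iΔEC/iΔEC (iDEC) over loxP/loxP (right) all 40 are open and lie between -0.31 and 0.44.

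**Figure D3:**
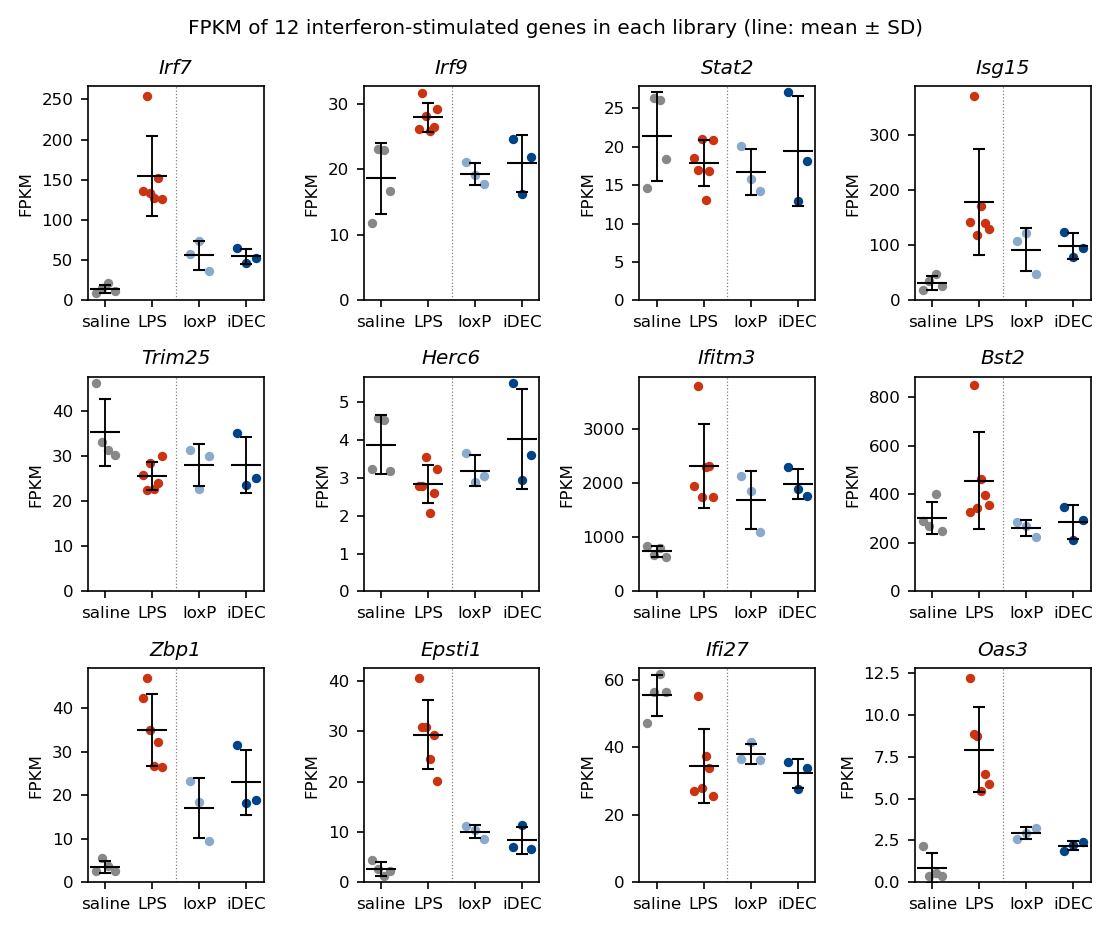
FPKM of 12 genes in every library (points) with the mean and SD of each group (lines); each axis starts at 0, and the dotted line parts the 2 experiments, whose tables were normalized separately. Irf7, Isg15, Zbp1, Epsti1 and Ifitm3 have LPS libraries far above saline, Stat2 and Herc6 overlap, and the loxP and iDEC libraries overlap in 10 of the 12 genes, all but Oas3 and Ifi27.

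The pathway around these genes was read at the level of the ligands first. The 21 genes of type I, II and III interferons together had 0 to 12 reads per library in the saline and the LPS group, and none of them passed the filter. Ifnb1 had 0 reads in all saline libraries, and 2, 1 and 1 reads in LPS 2, LPS 3 and LPS 4, at or under the floor of 3 reads. Ifng was at 0 to 0.235 FPKM in saline and 0 to 0.212 FPKM in LPS. RNA of a transient ligand at an earlier time was not measured here. The receptor and kinase genes were read in every library. Ifnar2 had a log2 fold change of 0.47 (adjusted p = 0.0137), Ifnar1 0.30 (adjusted p = 0.0872), Jak1 0.08 (adjusted p = 0.499) and Tyk2 0.01 (adjusted p = 0.979), and none of these passed both limits. With the endothelial markers as scale, Ifnar1 (1.07, adjusted p = 0.0079) and Ifnar2 (1.24, adjusted p = 0.000975) did. In all, 1 of 6 receptor genes rose (Il10rb, 1.23), and at the adjusted p alone 5 of the 6 were higher, with a median of 0.94. Of the JAK and STAT genes 0 of 4 passed, though Jak2 (0.88) passed without saline 1 (1.01), and by limma 2 of the 4 had an unadjusted p under 0.05, against 59.6% of all genes.

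Of the genes that induce interferon, 8 of 17 rose and 0 fell. The largest changes were in Cd14, the co-receptor of TLR4 (log2 fold change 5.76, adjusted p = 0.000268), Ikbke, the gene of IKKε (4.52, adjusted p = 8.63e-07), Tlr7 (3.34, adjusted p = 4.46e-07) and Irf5 (3.27, adjusted p = 8.89e-06). Cd14 was at 95.7 FPKM in saline 1 and at 2.16 to 3.42 FPKM in saline 2 to saline 4, and its change was 6.94 without saline 1. Tlr4 itself had 0.94 (adjusted p = 0.00113), just under the limit, and it passed both limits in 7 of the alternatives, at 1.0 to 1.58. Irf3 had 0.02 (adjusted p = 0.919). Of the negative regulators, 5 of 10 rose and 1 fell: Ptpn6, the phosphatase SHP-1 of blood cells (3.77), Ptpn1 (2.57), Socs3 (2.48) and Socs1 (1.19, adjusted p = 0.0001) were among the higher ones, and Rnf125, a ubiquitin ligase that acts on RIG-I, was lower (-1.4, adjusted p = 0.0249). The fall of Rnf125 rests on saline 1, at 96.2 FPKM where saline 2 to saline 4 were at 17.6 to 19.8 FPKM, since it was -0.83 without saline 1 (limma adjusted p = 0.0383) and had an adjusted p of 0.0508 without LPS 2, and passed in neither. Socs3 was also highest in saline 1 (131 FPKM, where saline 2 to saline 4 were at 19.9 to 23.9), its groups overlapped, and its change was 3.12 without that library. Socs1, an inhibitor of JAK kinases, was at 1.20 ± 0.234 FPKM (SD, n = 4) in saline and 4.06 ± 0.928 FPKM (SD, n = 6) in LPS.

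Among 62 other interferon-stimulated genes tested, 17 rose and 0 fell, with a median log2 fold change of 0.36. The 4 largest rises were in Slfn4 (4.40), Slfn1 (4.26), Ifi204 (3.85) and Ifi27l2a (3.74), the first pair from the Schlafen family. Of the GTPases that interferon γ induces most, such as the guanylate-binding proteins, 0 of 16 tested passed, with a median of -0.14. By limma 5 of these had an unadjusted p under 0.05, and at the adjusted p alone 1 was higher and 2 were lower. These 3, named after their values were seen, were Tgtp1 at 0.89 (adjusted p = 0.0185), Gbp7 at -0.88 (adjusted p = 0.0314) and Gbp8 at -0.82 (adjusted p = 0.0059). Gbp7 passed both limits without saline 1 (-1.25) and Tgtp1 without saline 2 (1.14). Of the targets of NF-κB, which TLR4 activates through the adaptor MyD88, 23 of 26 rose and 0 fell, with a median of 2.15. Saa3 (9.41), Lcn2 (7.25), Cxcl2 (6.08) and Ccl2 (5.55) led them. Cxcl2 was at 130.5 FPKM in saline 1 and at 0.590 to 5.58 FPKM in saline 2 to saline 4, and its change was 7.49 without saline 1, 5.41 without saline 2 and 5.36 without saline 4. Slfn4, of the other interferon-stimulated genes, was also highest in saline 1 and had 5.03 without it. Differences between these lists were not tested.

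**Figure D4:**
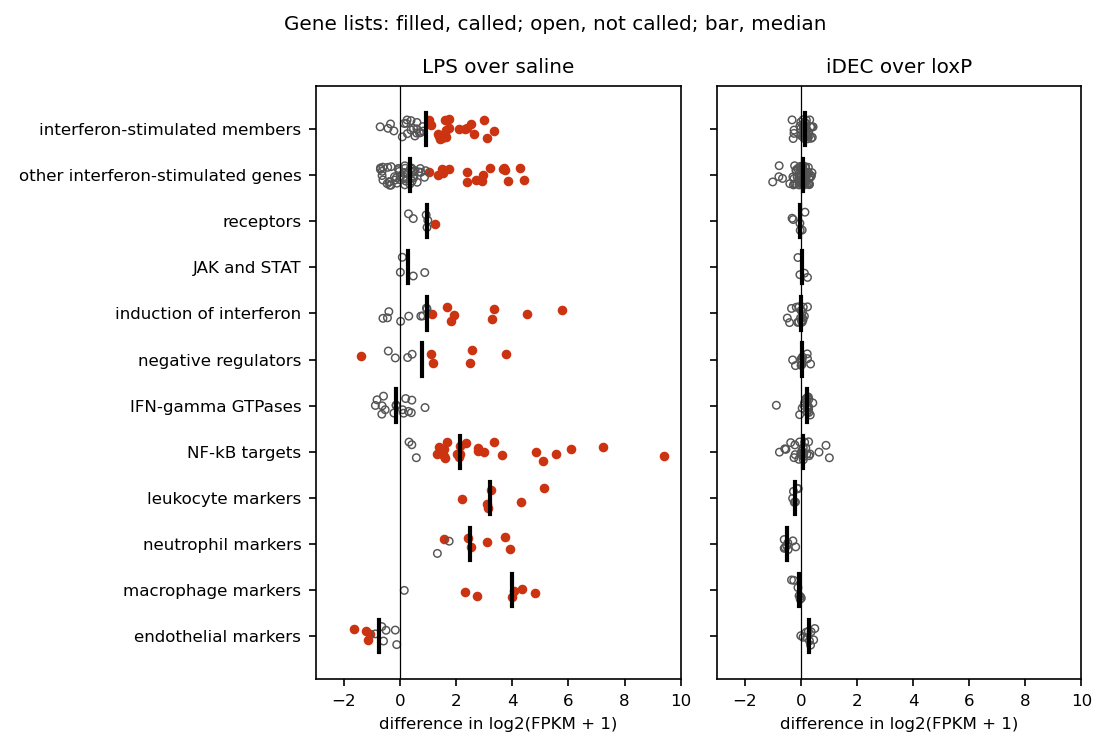
Each point is the difference in mean log2(FPKM + 1) of 1 tested gene, filled where called, in LPS over saline (left) and iDEC over loxP (right), and black bars are list medians. On the left the medians are 0.93 for the 40 genes, -0.14 for the GTPases of interferon γ, 2.15 for the NF-κB targets and 3.20 for the leukocyte markers; on the right no point is filled.

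Endothelial markers were abundant in all libraries, with all 10 genes read in each, and the summed FPKM of the list was 3292 to 5868 in saline and 1429 to 3329 in LPS. Cldn5 was the most abundant of them. Of the 10 endothelial genes 4 fell with LPS and 0 rose. Markers of blood cells rose with the interferon-stimulated genes, although beads were used to remove CD45+ cells, so RNA of such cells remained in the LPS libraries. All 6 leukocyte markers rose (median 3.20), and their summed FPKM was 365, 148, 104 and 129 in saline 1 to saline 4 and 1353 to 3295 in LPS (median 2474), with Tyrobp the most abundant. Of the macrophage markers 6 of 7 tested rose, and their sum was 70.3 to 138 FPKM in saline and 642 to 1433 FPKM in LPS, with Chil3 the most abundant. Of the neutrophil markers 6 of 8 rose, and their sum was 1395 FPKM in saline 1, 75.2 to 314 FPKM in the other saline libraries and 1295 to 6672 FPKM in LPS, highest in LPS 2. S100a9 was the most abundant of them. Lymphocyte markers did not rise (0 of 5 rose and 2 fell). Of the markers of plasmacytoid dendritic cells, a main source of interferon α, Siglech was at 0 to 0.0729 FPKM and Ccr9 at 0.0272 to 0.0963 FPKM in the LPS libraries, Klk1 and Pacsin1 were under 1 FPKM in all libraries, and Lair1, which other leukocytes also use, rose by 3.84. Cox6a2 had -0.35 and did not pass. Of the epithelial markers 2 of 10 fell and 0 rose, and their sum was 1151 to 2973 FPKM in saline and 293 to 1023 FPKM in LPS, without overlap. Of the mural markers 1 of 7 fell and 0 rose. Of the 6 fibroblast markers tested 0 passed both limits, and 4 were lower at the adjusted p alone, while 3 of 4 globin genes rose. The part of these cells in the values of the 40 genes was not tested, and in bulk RNA fewer cells of a type and less RNA per cell cannot be told apart.

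The scaling of the libraries set how many genes passed. Scaling to the endothelial markers let 31 of the 40 pass, with a median of 1.69 for the 40 genes and 0.63 for all genes tested. With scaling on total reads and with quantile normalization 18 rose, with medians of all genes of -0.14 and -0.08. The split of all genes moved too: 1768 rose and 1011 fell by median-of-ratios scaling, 1373 and 1440 by total reads, 1366 and 1326 by quantile normalization, and 4750 and 177 by the endothelial markers.

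The second experiment asked what loss of endothelial Fgfr1 changed in LPS-treated mice. Fgfr1, the targeted gene, was at 2.90, 2.91 and 2.59 FPKM in loxP/loxP 1 to 3 and at 0.683, 1.41 and 1.15 FPKM in iΔEC/iΔEC 1 to 3. The groups did not overlap, and the difference in log2 was -0.88 with a standard error of 0.16. It was -1.0 to -0.74 when a library was left out. The two-sided exact permutation p was 0.1, the smallest that 3 against 3 libraries can give. After adjustment over all genes tested, the limma adjusted p was 0.962. The authors also checked the knockout by RT-PCR and western blotting. Reads over the whole gene do not show which exons were removed.

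Of the 40 interferon-stimulated genes 0 passed by limma in either direction, as did 0 of all 14945 genes tested (0.0%). At an unadjusted p under 0.05 there was 1 of the 40, Oas3, against 4.42% of all genes. With same-numbered libraries blocked as pairs there were 2 of the 40, Oas3 and Lgals3bp, under the same limit. The share of all genes with the block is not given here, so that count is not read as particular to the 40 genes. Without the block, the smallest adjusted p among the 40 was 0.962. Their log2 fold changes were -0.31 to 0.44 with a median of 0.15, and 33 were above 0 and 7 below. The group sizes limit what could be seen. In simulated data with these group sizes, 11.9% of genes changed by a fold of 2 reached a limma adjusted p of 0.05. Of those changed by a fold of 4, 88.9% did. The simulated reads were drawn independently, with the same added spread for every gene. They had no pairs and no differences in cell content between libraries, so these shares need not hold for the real libraries. Scaling to the endothelial markers gave a median of -0.10 for the 40 genes and -0.20 for all genes, so the median of the 40 genes was above that of all genes in both scalings.

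The groups did not overlap in 2 of the 40 genes (5.0%), both lower in iΔEC/iΔEC mice, against 6.1% of all genes higher, 4.07% lower and 10.2% in either direction. Oas3 was at 2.60, 2.97 and 3.27 FPKM in loxP/loxP 1 to 3 and at 1.89, 2.24 and 2.42 FPKM in iΔEC/iΔEC 1 to 3. The highest iΔEC/iΔEC library was just under the lowest loxP/loxP library, and the difference in log2 was -0.31 with a standard error of 0.12 (limma adjusted p = 0.962). Ifi27 was at 36.4, 41.5 and 36.3 FPKM in loxP/loxP 1 to 3 and at 35.6, 27.6 and 33.7 FPKM in iΔEC/iΔEC 1 to 3. Its difference in log2 was -0.24 with a standard error of 0.13 (limma adjusted p = 0.962). The largest values above 0, Zbp1 at 0.44 and Rsad2 at 0.41, had overlapping groups.

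The libraries of 1 genotype differed among themselves. Among the iΔEC/iΔEC libraries the first was highest in 36 of the 40 genes. Among the loxP/loxP libraries the first was highest in 29 and the third lowest in 34. The matching shares of all genes are not given here, so these counts are not read as particular to the 40 genes. Zbp1, as an example, was at 23.3, 18.5 and 9.55 FPKM in loxP/loxP 1 to 3 and at 31.6, 18.3 and 19.0 FPKM in iΔEC/iΔEC 1 to 3. Isg15 was at 108, 122 and 47.0 FPKM and at 124, 78.2 and 94.6 FPKM in the same order. Within the same-numbered pairs the iΔEC/iΔEC library was the higher one in 34 of the 40 genes in pair 1, in 10 in pair 2 and in 34 in pair 3, against 50.9%, 51.3% and 54.6% of all genes. Thus the pairs did not share 1 direction, and 6 of the 40 genes were higher and 2 lower in all 3 pairs, against 18.0% and 12.8% of all genes. The 6 genes are Herc6, Ifih1, Ifitm3, Lgals3bp, Mx2 and Rsad2.

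The summed leukocyte markers went the other way from most of the 40 genes in each pair. They were at 795, 1122 and 929.6 FPKM in loxP/loxP 1 to 3 and at 556, 1302 and 812 FPKM in iΔEC/iΔEC 1 to 3. The summed neutrophil markers were at 1183, 2579 and 2601 FPKM in loxP/loxP 1 to 3 and at 759.9, 2471 and 1544 FPKM in iΔEC/iΔEC 1 to 3. They were lower in iΔEC/iΔEC in every pair, all 8 genes had values below 0 (median -0.48), 5 of the 8 were lower in all 3 pairs, and none passed. The summed endothelial markers were at 2939, 2302 and 2439 FPKM in loxP/loxP 1 to 3 and at 3710, 2637 and 3511 FPKM in iΔEC/iΔEC 1 to 3, higher in iΔEC/iΔEC in every pair. The summed epithelial markers were at 979.6, 1735 and 2967 FPKM in loxP/loxP 1 to 3. In iΔEC/iΔEC 1 to 3 they were at 498.4, 1145 and 905 FPKM. All 10 epithelial markers had values below 0 (median -0.73), and none passed. In all 3 pairs 7 of the 10 were lower, against 12.8% of all genes. By limma 3 of the 10 had an unadjusted p under 0.05, and 6 with the pairs blocked. All 6 lymphocyte markers were also below 0 (median -0.36), 3 of them lower in all 3 pairs, and none passed. The part of these cells in the values of the interferon-stimulated genes was not tested. Of the interferon genes, 0 reads fell on Ifnb1 in all 6 libraries. Ifng was at 1.499, 0.329 and 0.255 FPKM in loxP/loxP 1 to 3 and at 1.17, 0.273 and 0.712 FPKM in iΔEC/iΔEC 1 to 3, with 6 to 33 reads per library, so the first library of each genotype was highest. None of the 19 GTPases of interferon γ passed by limma, and 0 had an unadjusted p under 0.05. Of the receptor, JAK and STAT, induction, negative regulator and other interferon-stimulated lists, 0 of 6, 0 of 4, 0 of 17, 0 of 10 and 0 of 62 genes tested passed. At an unadjusted p under 0.05 by limma there were 0, 0, 0, 1 and 0. With same-numbered libraries blocked as pairs there were 0, 0, 1, 1 and 5, and 1 of the 19 GTPases. The share of all genes at a blocked p under 0.05 is not given here. The blocked counts, with that of the epithelial markers, are therefore not read as particular to a list. With the block, 0 genes reached a limma adjusted p of 0.05.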

How the data were processed

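Reads were aligned by the authors to GRCm38/mm10 with HISAT2 2.0.5 and counted on genes with featureCounts 1.5.0-p3, and the authors deposited FPKM with gene lengths. The annotation release, strandedness and treatment of reads with several alignments are not given in the sources used here. Whole reads were recovered from 100.0% of the FPKM values (within 0.02 reads). The 40 genes and all lists were chosen with earlier results of these data known.

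Libraries were brought to 1 scale with median-of-ratios factors. Genes averaging 0.5 FPKM or more were compared as log2(FPKM + 1) in limma 3.58.1 under R 4.3.3 (lmFit, eBayes with a trend), with Benjamini-Hochberg adjustment over all genes. The method was tested on simulated data. In the second experiment same-numbered libraries deviated together (correlations 0.177 to 0.248 over genes), so the numbers were taken as pairs from the data, since the labels do not say what a number marks, and blocking on the number left 0 genes called. All 40 genes are named, with library values for the 3 largest and 3 smallest changes, the transcription factors and the 3 highest levels, and for those of the second experiment whose groups do not overlap. In other lists the named genes are the up to 4 called with the largest change and 9 fixed pathway genes. Outside this rule, Jak2 is named because its call changed without saline 1. Tgtp1, Gbp7, Gbp8 and the genes of the last section were named after their values were seen. Some marker genes are named as well. A further pathway gene is not reported here. Gene positions matched GENCODE M21 for 40 of 40 genes. Coordinates are 1-based. Libraries of one group were not copies of each other (mean chi-square of the reads at least 5.06). Intervals and floors cover counting error only. The alternatives were another pseudocount, no filter, FPKM as deposited, other scalings, limma-voom on reads, a replicate block and leaving out each library. Python 3.11.15, pandas 2.3.3, numpy 2.4.6, scipy 1.17.1 and matplotlib 3.10.9 were used.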

Additional observations from a re-analysis of the deposited data

Results flagged for a closer look

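Of 94 group values examined in the saline and LPS groups, 7 held a library that Dixon's criterion sets apart, where chance flags about 1 in 20, or 4.7. LPS 2 was far above the other LPS libraries in 6 genes: Irf7 (254 FPKM, others 126 to 153), Isg15 (371, others 119 to 171), Ifit3 (169, others 66.2 to 91.0), Bst2 (851, others 327 to 464), Ifitm3 (3807, others 1744 to 2324) and Rtp4 (115, others 58.4 to 71.4). Saline 1 was far above the other saline libraries in Oas3 (2.19 FPKM, others 0.374 to 0.547). The cause of these values was not tested.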

How the results depend on the processing

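The number of genes that rose with LPS was 20 in the main setting and with a pseudocount of 0.1, no filter, limma-voom and the replicate block (FPKM as deposited are the main setting here, since all 10 scaling factors were 1), 18 to 20 when a library was left out, and 28 with no limit on the fold change, where 2 were lower. It was 31 with the endothelial list as scale. Quantile normalization gave 1 gene lower, Ifi27 (-1.21). Isg20 (0.91 and 0.86) and Oasl2 (0.83 and 0.67) lost their call with scaling on total reads and quantile normalization. Without saline 1 and LPS 2 together, a choice made after seeing the data, 18 rose, and Isg20 (0.94) and Oasl2 (0.57) lost their call. Over all genes tested, 1768 rose and 1011 fell, against 2331 and 1840 with a pseudocount of 0.1, 2355 and 2008 with limma-voom, and 4750 and 177 with the endothelial list as scale. In iΔEC/iΔEC mice 0 genes passed in any setting.

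Signs turned only in genes that had not passed both limits. With the endothelial list as scale these were Stat2 (0.54), Herc6 (0.27), Trim25 (0.34) and Ifi27 (0.07), all still below the median of all genes, which that scale moved to 0.63. With scaling on total reads they were Cmpk2 (-0.11), Ifi44 (-0.03), Jak1 (-0.12), Tyk2 (-0.18) and Irf3 (-0.18). With quantile normalization they were Ddx58 (-0.003), Bst2 (-0.06), Cmpk2 (-0.17), Ifnar1 (-0.07), Jak1 (-0.40), Tyk2 (-0.15) and Irf3 (-0.40). Without saline 1 and LPS 2 they were Cmpk2 (-0.21), Ifi44 (-0.19) and Irf3 (-0.18). When a library was left out, the ranges were -0.06 to 0.37 for Dtx3l, -0.15 to 0.21 for Cmpk2, -0.06 to 0.35 for Ifi44, -0.07 to 0.07 for Tyk2 and -0.11 to 0.10 for Irf3. The cause was not tested. In the first experiment the same-numbered libraries did not deviate together (correlations -0.209 to 0.097), so they share only a number, and the block still gave 20. In the second the replicate block gave 0. With the 250 bases before the start alone, 3 in place of 6 genes that did not pass held the ISRE letters, and with matches spaced by 1 base as well there were 9, and 1964 in place of 1079 of all genes. Tlr4 passed both limits with a pseudocount of 0.1 (1.11), the endothelial list as scale (1.58), limma-voom (1.13), the replicate block (1.02) and without saline 3 (1.02), LPS 4 (1.0) or LPS 5 (1.01). Ifnar1 (1.07) and Ifnar2 (1.24) passed with the endothelial list as scale.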

Other observations

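Some interferon-inducible genes outside the 40 were near 0 in some libraries of the second experiment and higher in others, and they were picked after their values were seen. Gbp2b was at 0.146, 25.4 and 12.6 FPKM in loxP/loxP 1 to 3 and at 0.129, 0.0209 and 58.0 FPKM in iΔEC/iΔEC 1 to 3, so 3 of the 6 libraries were near 0. It was at 0 to 0.378 FPKM in all 10 libraries of the first experiment. Trim5 was listed at 0 in iΔEC/iΔEC 1 and was at 1.24 to 4.06 FPKM in the other libraries. In the same library Trim12a was at 0.0315 FPKM with 3 reads, against 2.91 to 7.69 FPKM in the others, and Trim30d at 0.437 FPKM, against 3.64 to 6.71 FPKM.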
